A study of Mus musculus with 44 samples.

Results

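Salt gratification after ACTH was examined in the brain without its hypothalamus, as the difference between 5 arrays of mice labelled ACTH gratified and 4 arrays of mice labelled ACTH. The arrays were chosen by their labels and make up 9 of the 44 arrays of the study. All 9554 features of the deposited table entered the comparison. Adult male C57/Bl6 mice were used throughout. The labels give 5 conditions, namely no treatment, ACTH, ACTH gratified, furosemide and furosemide gratified. Titles call the tissue whole brain, and the tissue label makes clear that the hypothalamus had been taken out. The hypothalamus of the animals was measured on arrays of its own. The sources used here do not give the dose, the duration or what the gratified mice were offered. Each array carried Cy5-labelled brain RNA against Cy3-labelled universal mouse reference RNA, a commercial mixture, so each value is a log ratio of brain over reference and was taken as log2. Oxt and Avp, precursors of hypothalamic hormones, lay between 0.19 and 0.67 and between 0.27 and 0.68 on the 9 arrays, against medians of 2.73 and 2.68 over the 11 hypothalamic arrays of the same treatments. Neurod2, a transcription factor of cortical neurons, lay between 1.72 and 1.95 on the 9 arrays.

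Sodium appetite is the drive to seek and drink salt that appears when the body has lost sodium or when adrenal and stress hormones are high. ACTH, the pituitary hormone that makes the adrenal cortex release corticosteroids, raises salt intake in mice, whereas furosemide is a diuretic that causes sodium to be lost in the urine. An animal that has drunk its fill of salt stops seeking it, and reward circuits of the forebrain, including dopamine-receiving neurons of the striatum, have been studied as part of that change.

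The ACTH arrays were not uniform. Replicates 1 and 2 correlated with each other at 0.951 over all features, whereas the pairs that held replicate 3 or 4 correlated at 0.898 to 0.922. Pairs of gratified arrays correlated at 0.923 to 0.963. A tied value is one that another feature of the same array shares exactly. Of the values on an array, 22.2%, 21.05%, 30.3% and 33.5% were tied on ACTH replicates 1 to 4, against 22.3% to 27.1% on the gratified arrays (exact permutation p = 0.333).

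**Figure D1:**
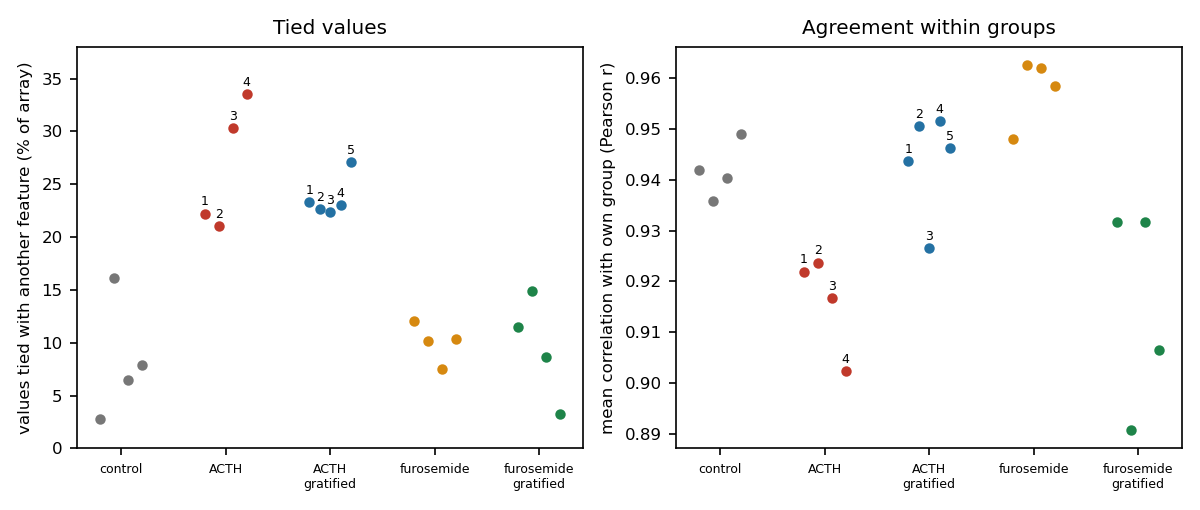
Left, the percentage of values on each brain array that are shared exactly by another feature of that array, and right, the mean Pearson correlation of each array with the other arrays of its group. ACTH replicates 3 and 4 have the most tied values (30.3% and 33.5%), and the ACTH means of 0.902 to 0.924, each of which includes pairs with replicate 3 or 4, lie below those of the gratified arrays.

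Few genes passed the test between gratified and ungratified ACTH brains, and all were lower after gratification. With limma and Benjamini-Hochberg adjustment over all features, 6 features passed an adjusted p of 0.05, which is 0.0628% of those tested. They stood for Adamts1, Gas2, Ccne2, Met, Ncaph and Akip1. No feature was higher at that threshold (0%). At an unadjusted p under 0.05 there were 614 features (6.43%), of which 401 were lower (4.2%) and 213 were higher (2.23%) after gratification. All 5 gratified arrays lay below all 4 ACTH arrays for 107 features (1.12%) and above them for 126 features (1.32%). The median difference over all features was 0.02 and the median standard error of a difference was 0.102 on the log2 scale. All 6 genes whose difference passed had an absolute difference of 0.57 or more.

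**Figure D2:**
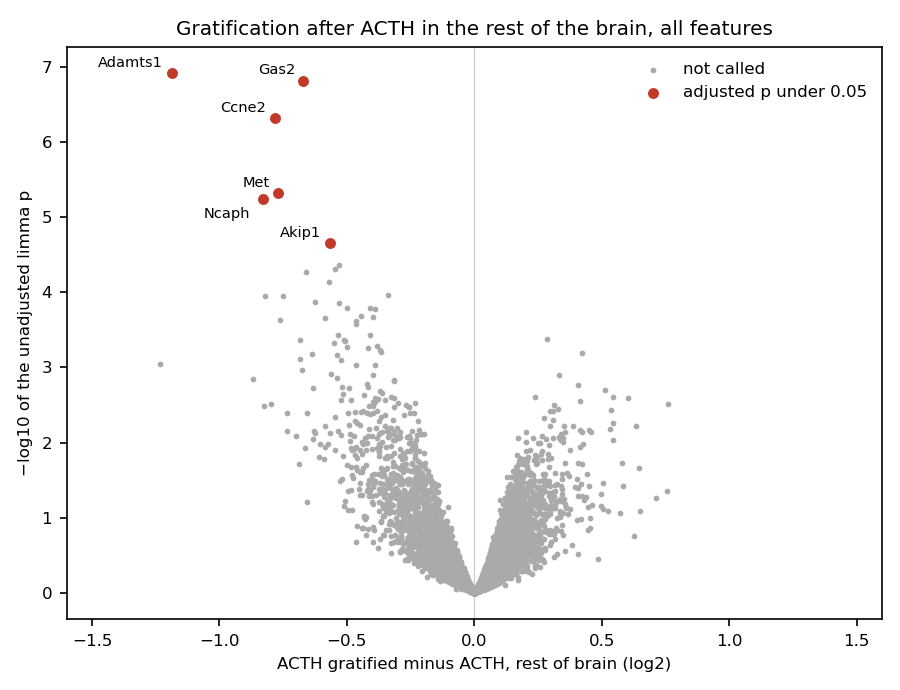
Each point is 1 of the 9554 features, with the log2 difference between gratified and ungratified ACTH brain on the horizontal axis and the negative log10 of the unadjusted limma p on the vertical axis. The 6 features past an adjusted p of 0.05 are in red and all lie on the left, from Adamts1 at -1.19 to Akip1 at -0.57.

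Adamts1 encodes a secreted metalloprotease that cuts proteoglycans of the extracellular matrix. Its log2 ratios on the 4 ACTH arrays were -0.37, -0.01, -0.02 and -0.17. The gratified arrays read -0.64, -1.51, -1.40, -1.56 and -1.56. The groups did not overlap, and gratified replicate 1 was the array nearest to the ACTH level. Adamts1 was 2.28-fold lower after gratification, a log2 difference of -1.19 ± 0.15 (SE), with a limma adjusted p of 0.000732. Leaving out each of the 9 arrays singly gave limma adjusted p from 4.67e-07, without gratified replicate 1, to 0.00677, without ACTH replicate 3. Untreated brains had -1.24, -1.41, -1.13 and -1.29, and the other 4 gratified arrays lay near or beneath the lowest of them.

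The promoter of Adamts1 is printed because this gene had the largest difference that passed, and that of Ncaph as the only other of the 6 genes that passed a test between tissues described below. Each run is the 250 bases before the gene's start in RefSeq on the build GRCm38.p6, on the minus strand, 5′ to 3′, at chr16:85803114-85803363 for Adamts1 and chr2:127133955-127134204 for Ncaph.
Adamts1: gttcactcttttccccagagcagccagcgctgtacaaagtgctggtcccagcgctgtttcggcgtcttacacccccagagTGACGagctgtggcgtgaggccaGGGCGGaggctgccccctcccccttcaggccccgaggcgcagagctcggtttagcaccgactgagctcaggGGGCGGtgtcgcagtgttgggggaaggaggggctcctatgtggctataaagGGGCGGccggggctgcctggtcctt
Ncaph: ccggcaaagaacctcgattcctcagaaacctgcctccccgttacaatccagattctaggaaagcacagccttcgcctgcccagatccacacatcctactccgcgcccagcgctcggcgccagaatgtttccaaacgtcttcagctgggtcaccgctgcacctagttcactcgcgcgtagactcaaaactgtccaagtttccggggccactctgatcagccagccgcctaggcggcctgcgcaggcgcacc
Capitals mark matches to 5 sets of letters, searched on both strands. These were the glucocorticoid response element (AGAACA, 3 bases of any kind, TGTTCT), its single arm AGAACA, the cAMP response element TGACGTCA, its core TGACG, which lies within it, and the GC box GGGCGG. Adamts1 had TGACG starting 170 bases before its start and GC boxes starting 147, 76 and 25 bases before it. The Ncaph window held none of them. Of the 8256 windows of genes on the array, 55.3% held the GC box, 24.2% TGACG, 11.4% AGAACA, 2.46% TGACGTCA and 0.0121% the whole glucocorticoid element. Over all 32851 such windows of mouse genes the shares were 32.7%, 17.8%, 16.1%, 1.55% and 0.00913% in the same order. Among the 6 genes 5 had a window, and none of the 5 held AGAACA or TGACGTCA.

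Gas2 encodes a growth arrest protein that binds actin and microtubules. The ACTH arrays read -0.13, -0.46, -0.08 and -0.41, and the gratified arrays read -1.11, -0.96, -0.84, -0.89 and -0.90. There was no overlap, and the lowest ACTH array was well above the highest gratified one. Gas2 fell by 0.67 ± 0.09 (SE) on the log2 scale, a 1.59-fold decrease with a limma adjusted p of 0.000732. Untreated brains lay between -0.78 and -0.63, between the groups.

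Ccne2 encodes cyclin E2, which activates a cyclin-dependent kinase at entry into S phase. On the ACTH arrays it read 0.03, 0.01, 0.35 and -0.32, and on the gratified arrays -0.87, -0.75, -0.64, -0.80 and -0.78. Replicate 4 was the lowest of the ACTH arrays and still lay above every gratified array. Ccne2 fell by 0.78 ± 0.11 (SE), a 1.72-fold decrease with a limma adjusted p of 0.00153, and untreated brains read between -0.76 and -0.53.

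Ncaph encodes a subunit of condensin, the complex that compacts chromosomes at mitosis. Its ACTH arrays spread widely, with -1.17, -0.32, -0.19 and -0.92, whereas its gratified arrays were close together at -1.44, -1.51, -1.41, -1.52 and -1.53. Replicates 1 and 4 of the ACTH group came nearest to the gratified level, and the groups did not overlap. Ncaph fell by 0.83 ± 0.14 (SE), a 1.78-fold decrease with a limma adjusted p of 0.0110. The SD was 0.472 (n = 4) in the ACTH group and 0.055 (n = 5) in the gratified group. Untreated brains read between -1.37 and -1.27.

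Met encodes the receptor tyrosine kinase for hepatocyte growth factor. It is named outside the rule for named genes, because its values were tied on more arrays than that rule admits, and it was chosen after its values were seen. Met read 0.41, 0.45, 0.34 and 0.24 on the ACTH arrays, all 4 of them tied. On the gratified arrays it read -0.45, -0.36, -0.33, -0.44 and -0.48, and replicates 3 and 4 of them were tied. The groups were far apart, with a fall of 0.77 ± 0.13 (SE), 1.71-fold, and a limma adjusted p of 0.0110. Tied values of the 9 arrays had medians between 0.309 and 0.409 per array, and Met replicates 1 and 3 of the ACTH group lay within that span, replicate 2 above it and replicate 4 below it. What makes values tie was not tested.

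Akip1 encodes a protein that binds protein kinase A, and the table lists it under an older human name. The ACTH arrays read -0.26, 0.40, -0.26 and -0.21 and the gratified arrays -0.67, -0.49, -0.73, -0.58 and -0.78. The ACTH arrays were all higher, with replicate 2 far above the other 3. Akip1 fell by 0.57 ± 0.10 (SE), a 1.48-fold decrease with a limma adjusted p of 0.0350. This call was lost without gratified replicate 1, 3, 4 or 5, with adjusted p of 0.0700, 0.0798, 0.0695 and 0.116. It was also lost with each array centred on its median (0.106), with quantile normalization (0.0888) and with the replicate number as a block (0.143).

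**Figure D3:**
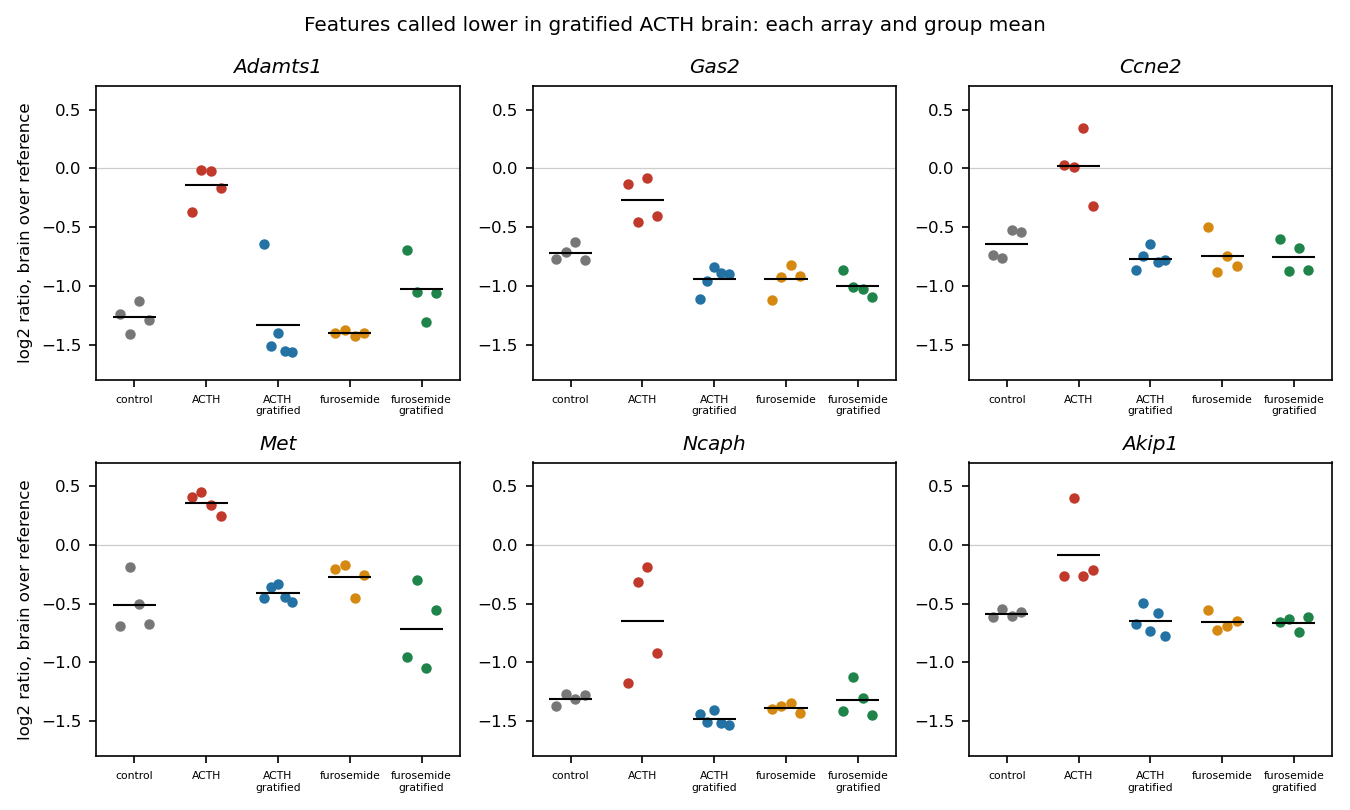
Points are the log2 ratios of brain over reference on each of the 21 brain arrays, for the 6 genes lower in gratified ACTH brain, and bars are group means. In every panel all 4 ACTH points lie above all 5 ACTH gratified points, and the means of the gratified, untreated and furosemide groups lie below the ACTH mean. For Ncaph 1 furosemide gratified point (-1.12) lies above the lowest ACTH point (-1.17).

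The 6 genes were also set beside untreated brains. ACTH against control passed for all 6, with ACTH higher (30% of all features passed it in either direction). The 6 were called on these same ACTH arrays, so a high ACTH level against control is partly built in. None of the 6 passed for gratified ACTH brain against control, a comparison that 32.7% of features passed. Gas2 came nearest, with a log2 difference of -0.22 ± 0.09 (SE) and a limma adjusted p of 0.0585. These 2 comparisons share arrays with each other and with the one described here, so the values only stand side by side. Both ACTH groups carry description numbers of one series and the untreated brains of another. For either ACTH group against control, the treatment and the number series therefore cannot be told apart. In bulk tissue, fewer cells of a type and less RNA per cell cannot be told apart.

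Ties and spread moved with these calls. For 5 of the 6 genes the ACTH group held a larger share of tied values than the gratified group, as did 29.0% of all features, 62.1% of the 401 lower and 23.0% of the 213 higher ones. Ncaph was untied on all 9 arrays and had a limma adjusted p of 0.0173 when the 4351 features with no tie on these arrays were fitted alone. The SD was larger in the ACTH group for 5 of the 6 genes and for 56.7% of all features. What part ties or spread have in the calls was not tested.

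Leaving out ACTH replicate 1, 2 or 4 raised the number of features that passed to 41, 17 and 21, and the 6 genes were among them each time. Without replicates 3 and 4 together, a choice made after seeing the data, 32 features passed, 6 of them higher, and again the 6 genes were among them. When only the 9 arrays were fitted, so that the other brain groups lent no estimate of the spread, 1 feature passed, Met. The adjusted p was then 0.169 for Adamts1, 0.154 for Gas2 and Ccne2, 0.511 for Ncaph and 0.625 for Akip1.

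Next in order of p came lower genes that did not pass. Syncrip, an RNA-binding protein of ribonucleoprotein particles, read -0.59, -0.50, -0.77 and -0.92 on the ACTH arrays and lay between -1.28 and -1.17 on the gratified arrays. Its first feature had a difference of -0.53 ± 0.10 (SE, limma adjusted p = 0.0563) and no overlap, while its second feature had -0.14 (adjusted p = 0.954). Rpa3, the smallest subunit of the single-strand DNA binding protein RPA, read -0.64, -0.35, -0.66 and -0.88 on the ACTH arrays and -1.27, -1.21, -0.85, -1.28 and -1.28 on the gratified arrays. Gratified replicate 3 overlapped the ACTH range, and the difference was -0.54 ± 0.11 (SE, limma adjusted p = 0.0563).

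The ACTH arrays of Capza1, an actin capping subunit, read -0.41, -0.11, 0.02 and -0.11, against -1.06, -0.90, -0.59, -0.85 and -0.65 after gratification. Capza1 thus had no overlap and a difference of -0.66 ± 0.13 (SE, limma adjusted p = 0.0563). Csnk1a1, a casein kinase of the Wnt and clock pathways, had a difference of -0.57 and an adjusted p of 0.0696. Tyms, which makes the thymidine nucleotide for DNA synthesis, read -1.05, -0.87, -1.03 and -1.18 against -1.46, -1.26, -1.37, -1.37 and -1.39. Its groups did not overlap, and it differed by -0.34 ± 0.07 (SE, limma adjusted p = 0.0835). Ranking by p favours genes without overlap, and 1.12% of all features lay lower without overlap. The 10 lower genes named by rank that did not pass had differences between -0.34 and -0.66 and limma adjusted p between 0.0563 and 0.0989. Of them 7 had no overlap. They also included Ogn, a small proteoglycan, Exosc9, a subunit of the RNA exosome, Ptpn6, a phosphatase of blood-derived cells, Pou2af1, a B cell coactivator, and Atg4c, an autophagy protease.

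Families were looked up after the values were seen, so they are described without a test. Of 17 cyclin genes measured, Ccne2 alone passed, 9 lay below 0, and the 16 others ranged from -0.56 to 0.14. An unadjusted p under 0.05 was reached by 4 cyclins, all lower, and 4.2% of all features were lower at that p. Ccne2 had passed before the family was looked up, so its place in that count was fixed in advance. The 4 cyclins were Ccne2, Ccnt1 (-0.56), Ccnl2 (-0.40) and Ccnh (-0.35). Ccne1, the closest relative of Ccne2, had a difference of 0.04. Condensin had 5 measured subunits, all below 0, with Ncaph alone passing and the others between -0.32 and -0.01, and 1 lay above 0 when arrays were centred on their medians. ADAMTS proteases had 8 members, and the 7 besides Adamts1 lay between -0.02 and 0.17. Replication protein A had 3 subunits, and those besides Rpa3 were within 0.05 of 0. Mst1r, the other receptor of the Met family, lay at -0.12 and Hgf, the gene of the Met ligand, at 0.01, and neither passed.

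Large differences were not always called. Scpep1, a serine carboxypeptidase named here for its size after its values were seen, had the largest difference of all features, -1.23 ± 0.32 (SE, limma adjusted p = 0.203). Its ACTH arrays read -1.41, 0.33, 0.76 and 0.31 and its gratified arrays -0.20, -1.50, -1.52, -1.55 and -1.40. The groups overlapped, since ACTH replicate 1 had the low reading of most gratified arrays and gratified replicate 1 was high.

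Of the 15 genes first in order of p among those with a higher mean after gratification, none passed. Their differences ran from 0.24 to 0.60, their limma adjusted p from 0.141 to 0.466, and 6 of them had no overlap between groups. Such ranking favours genes without overlap, and 1.32% of all features lay higher without overlap. Vtn, the adhesive glycoprotein vitronectin, read 1.30, 1.39, 1.17 and 0.80 on the ACTH arrays and 1.48, 1.52, 1.85, 1.57 and 1.51 on the gratified arrays. All gratified arrays were higher, with a difference of 0.42 ± 0.10 (SE, limma adjusted p = 0.165). Untreated brains were higher still, between 1.79 and 2.03. Scg5, a chaperone of a prohormone convertase, read 1.89, 1.02, 1.68 and 1.56 against 1.93, 1.91, 1.90, 2.05 and 1.94. The gratified arrays of Scg5 all lay above the ACTH arrays, which spread far more, and the difference was 0.41 ± 0.11 (SE, limma adjusted p = 0.307).

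Dlgap3, a postsynaptic scaffold abundant in striatum, read 1.24, 1.01, 1.12 and 1.10 on the ACTH arrays and 1.65, 1.53, 1.22, 2.07 and 1.84 on the gratified arrays. Gratified replicate 3 was the only one within the ACTH range, and the difference was 0.55 ± 0.16 (SE, limma adjusted p = 0.355). Gjb6, the astrocyte connexin, had the greatest difference of the 15, 0.60 ± 0.18 (SE, limma adjusted p = 0.356), with ACTH arrays scattered at 0.95, 1.94, 0.69 and 1.54 and gratified arrays from 1.69 to 2.20. Others were Stmn3 (0.33), a neuronal stathmin, Caln1 (0.31), a neuronal calcium-binding protein, and Gnal (0.35), the G protein subunit that couples striatal dopamine receptors to adenylyl cyclase. Elavl4, a neuronal RNA-binding protein, was among them at 0.30 through 1 of its 2 features, while the other lay at 0.02. Eif4e2, a cap-binding protein, had the smallest p through 1 of its 3 features, at 0.28 (adjusted p = 0.141), while the other 2 lay at 0.02 and -0.01.

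Of 30 gene lists, covering 663 measured genes, none held a gene that passed. Unadjusted p under 0.05 was reached by 20 of these genes with a lower and 18 with a higher value, against 6.43% of all features in either direction. List medians ran from -0.08 for cortex and hippocampus to 0.16 for cerebellum, and 21 of the 30 were above 0, beside a median of 0.02 over all features. Medians near 0 followed the scaling. With each array centred on its own median 29 list medians were above 0, beside 0.06 over all features, and those of immediate early, corticosteroid-responsive, microglial and endothelial genes were among them. With quantile normalization 19 were above 0, and that of the renin-angiotensin and salt hormone genes was -0.01.

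**Figure D4:**
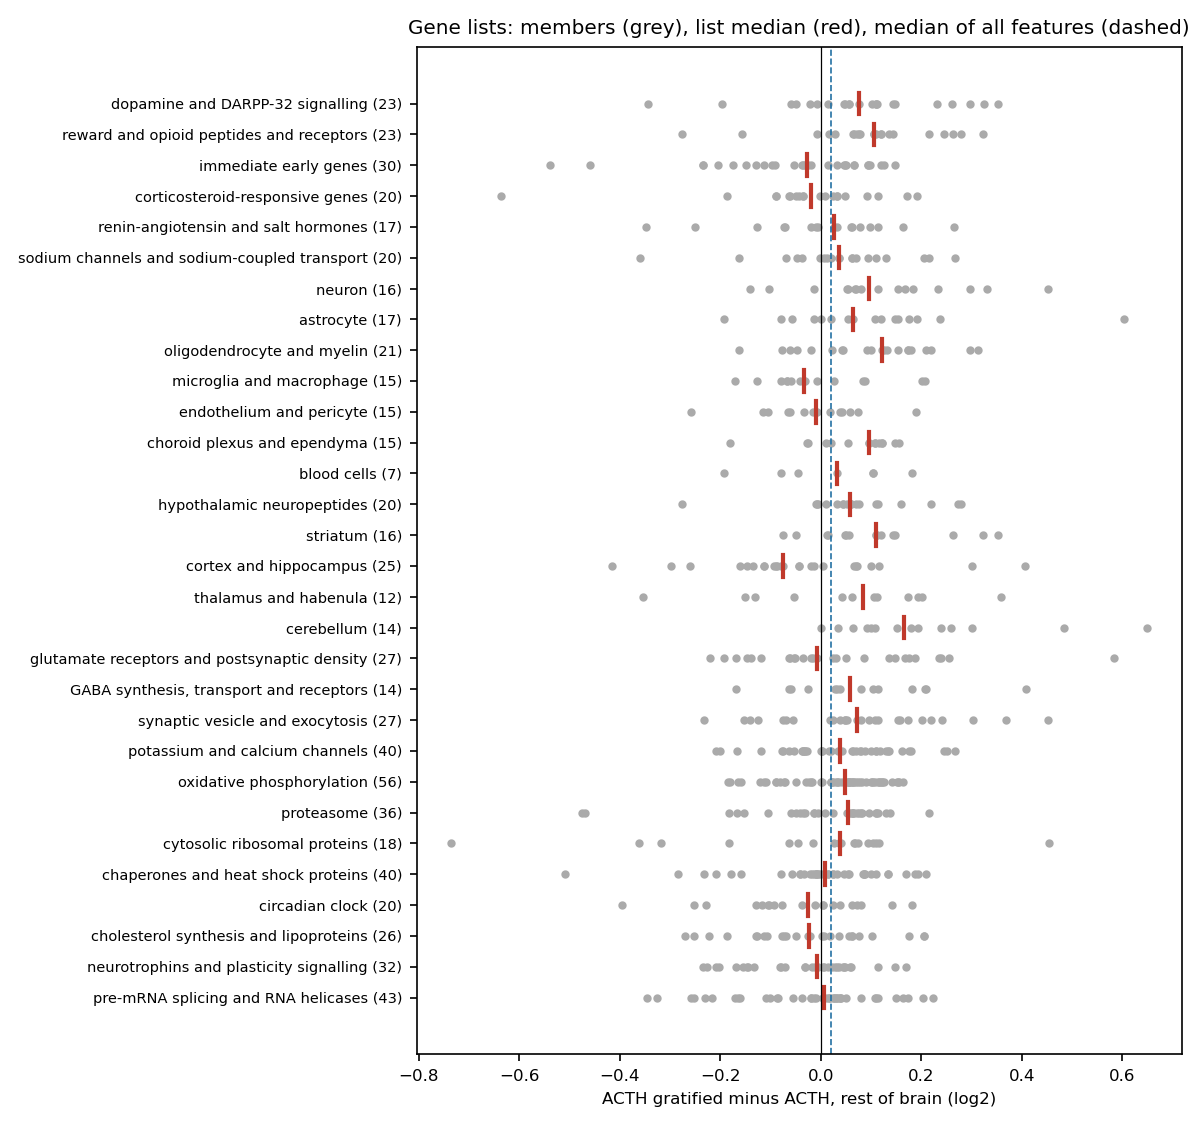
Each row is a gene list with its number of measured genes, and each grey point is the log2 difference of 1 gene between gratified and ungratified ACTH brain. Red bars mark list medians, all within -0.08 and 0.16, and the dashed line marks the median of all features, 0.02.

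Genes of dopamine signalling and reward did not pass. In the list of dopamine and DARPP-32 signalling 23 genes were measured, 17 of them above 0 with a median of 0.08. At an unadjusted p under 0.05, 4.2% of all features were lower and 2.23% higher, and 1 gene of the list lay in each direction. These were Gnal and Ppp1cb, a catalytic subunit of protein phosphatase 1, the latter with a difference of -0.34 ± 0.14 (SE, limma adjusted p = 0.672). Ppp1r1b, which encodes the striatal phosphatase inhibitor DARPP-32, read 2.54, 2.21, 2.43 and 2.50 on the ACTH arrays and 2.55, 2.54, 2.35, 2.58 and 2.62 on the gratified arrays. The ranges overlapped and the difference was 0.11 ± 0.12 (SE, limma adjusted p = 0.947).

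The dopamine receptor genes had differences of 0.11 for Drd1, whose values were tied on all 9 arrays, and 0.06 for Drd2. Penk, the enkephalin precursor, differed by 0.12 ± 0.20 (SE) and had overlapping groups. Among 23 genes of reward and opioid peptides and receptors, 20 lay above 0 with a median of 0.11, beside a median of 0.02 over all features. Of these genes Oprd1, Oprk1, Tacr1 and Tacr3 were tied on all 9 arrays. Oprm1, the mu opioid receptor, had the smallest p of that list, a difference of 0.21 and a limma adjusted p of 0.693. It was tied on 3 of the 4 ACTH arrays and 2 of the 5 gratified arrays. The striatum list had 14 of 16 genes above 0 and a median of 0.11.

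Immediate early genes, which neurons switch on within minutes of activity, had a median of -0.03, with 17 of 30 genes below 0. Fos read -0.92, -1.05, -1.03 and -1.19 on the ACTH arrays and -0.88, -0.88, -1.09, -0.89 and -1.03 on the gratified arrays, with overlap and a difference of 0.09 ± 0.13 (SE). Arc and Egr1 differed by 0.09 ± 0.22 and -0.11 ± 0.15 (SE), and gratified replicate 3 was the lowest array for each of them. Dusp6, the phosphatase that turns off ERK, had the smallest p of the list, with -0.67, -0.73, 0.17 and -0.36 on the ACTH arrays and -0.95, -0.87, -1.14, -0.94 and -0.77 on the gratified arrays. The groups did not overlap, and the difference of -0.54 ± 0.13 (SE) had a limma adjusted p of 0.165.

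Corticosteroid-responsive genes had a median of -0.02 over 20 measured. Of them 1, Bcl6, had an unadjusted p under 0.05, beside 6.43% of all features. Bcl6, a transcriptional repressor, read -0.57, 0.41, 0.35 and -0.22 on the ACTH arrays and -0.57, -0.55, -0.59, -0.69 and -0.83 on the gratified arrays. ACTH replicate 1 lay among the gratified arrays, and the difference was -0.64 ± 0.16 (SE, limma adjusted p = 0.165). Sgk1, a kinase induced by corticosteroids that raises sodium transport, differed by 0.09 ± 0.16 (SE), and Fkbp5, a co-chaperone of the glucocorticoid receptor, by -0.09 ± 0.14 (SE). Glul, glutamine synthetase, differed by 0.19 ± 0.24 (SE).

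For salt balance, 17 genes of the renin-angiotensin system and salt hormones had a median of 0.03. None reached an unadjusted p under 0.05, beside 6.43% of all features. Agt, angiotensinogen, spread from 0.65 to 1.83 on the ACTH arrays and from 0.83 to 2.27 on the gratified arrays and differed by 0.27 ± 0.28 (SE). Sodium channels and sodium-coupled transporters had 14 of 20 genes above 0. The smallest p values there belonged to Scn7a, the sodium-sensing channel gene, at 0.21 (limma adjusted p = 0.614), and Atp1b2, a sodium pump subunit of glia, at 0.27 (adjusted p = 0.762). Scn7a was tied on 4 of the 5 gratified arrays. Oxt and Avp differed by -0.01 and 0.06.

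No marker of a cell type passed. Neuronal markers had 13 of 16 genes above 0, a median of 0.10, and 3 genes with an unadjusted p under 0.05, all higher, namely Snap25, Stmn3 and Elavl4, beside 2.23% of all features higher at that p. Snap25 and Elavl4 each entered by 1 of 2 features, and the other Elavl4 feature lay at 0.02. Snap25, a synaptic fusion protein, read 2.92, 2.78, 1.95 and 1.95 on the ACTH arrays and 2.90, 2.85, 2.77, 2.86 and 2.90 on the gratified arrays. ACTH replicates 3 and 4 alone lay below the gratified range, and the difference was 0.45 ± 0.15 (SE, limma adjusted p = 0.472). Oligodendrocyte and myelin genes had 16 of 21 above 0 with a median of 0.12, and astrocyte genes 13 of 17 with a median of 0.06, Gjb6 among them. Microglial genes had 10 of 15 below 0 with a median of -0.03, and endothelial and pericyte genes 9 of 15 with a median of -0.01. In the endothelial list Flt1, a VEGF receptor, differed by -0.26 ± 0.09 (SE, limma adjusted p = 0.498). Choroid plexus and ependyma genes had 12 of 15 above 0, and blood cell genes 4 of 7.

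Synaptic and housekeeping lists also held no gene that passed. Among 27 genes of glutamate receptors and the postsynaptic density, 4 had an unadjusted p under 0.05, all higher. Of these, Dlg1 and Gria4 each entered by 1 of 2 features, the one that varied most. At that p 4.2% of all features were lower and 2.23% higher. Dlg1 had the smallest p of these genes, at 0.23 (limma adjusted p = 0.614). The AMPA receptor gene Gria4 had the largest difference, 0.58 (limma adjusted p = 0.740), with ACTH arrays spread from -0.70 to 0.64. Chaperones had 4 lower and 1 higher of 40, with Hsp90b1, the chaperone of the endoplasmic reticulum, at -0.21 (adjusted p = 0.472). Proteasome genes had 2 lower and 1 higher of 36, and oxidative phosphorylation had 1 lower of 56. Rps9, a ribosomal protein, had the lowest difference of the 18 cytosolic ribosomal genes, -0.74 ± 0.24 (SE, limma adjusted p = 0.472). ACTH replicates 3 and 4 of Rps9 read 0.48 and -0.31, while replicates 1 and 2 read -1.11 and -1.25, within the gratified range of -1.35 to -1.04. Of the clock genes, Nr1d2, a nuclear receptor of the clock, had the smallest p, with -0.40 ± 0.12 (SE, limma adjusted p = 0.378).

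The effect of gratification after ACTH was tested against the same contrast in the hypothalamus with all 44 arrays in 1 fit. A difference between tissues passed for 3 features (0.0314%), and 722 had an unadjusted p under 0.05 (7.56%). The array labelled hypothalamus ACTH gratified replicate 6 goes against its label, with Oxt at 0.15 and Avp at 0.47, and replicate 4 of that group stands apart, with a mean correlation of 0.770 with its own group. Without both, 1 feature passed, Adamts1, with an adjusted p of 0.0299.

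In the hypothalamus Adamts1 read -1.28, -0.55, -1.51, -1.51 and -1.38 on the ACTH arrays and from -1.53 to -0.05 with a median of -0.60 on the gratified arrays. In that tissue 8.33% of features had an unadjusted p under 0.05 for gratification after ACTH. The groups overlapped and the gratified mean was the higher, 0.51 ± 0.19 (SE, limma adjusted p = 0.418), against the fall of 1.19 in the brain. The difference between tissues was -1.70 ± 0.28 (SE, limma adjusted p = 0.00310).

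Ncaph in the hypothalamus lay between -1.57 and -1.25 on the ACTH arrays and between -1.54 and -0.39 on the gratified arrays, with overlap. Its difference between tissues was -1.05 ± 0.20 (SE, limma adjusted p = 0.0213). Kif20a, a kinesin of cytokinesis, did not pass in the brain itself, where the ACTH arrays read -1.41, -1.27, -1.13 and -1.12 and the gratified arrays -1.49, -1.54, -1.33, -1.45 and -1.40, a difference of -0.21 ± 0.07 (SE, limma adjusted p = 0.472). Hypothalamic Kif20a lay between -1.56 and -1.37 on the ACTH arrays and between -1.40 and -1.05 on the gratified arrays. The gratified mean was higher there by 0.31 ± 0.07 (SE, limma adjusted p = 0.128), which did not pass either. Its difference between tissues was -0.52 ± 0.10 (SE, limma adjusted p = 0.0213). Without brain ACTH replicates 3 and 4 together, the tissue calls of Ncaph (limma adjusted p = 0.0841) and Kif20a (0.266) were lost. Centring each array on its median also lost Kif20a (limma adjusted p = 0.0645). Each of these 2 calls was further lost when certain single arrays were left out. For Ncaph these were brain gratified replicates 1, 4 and 5, brain ACTH replicates 2 and 3, hypothalamus gratified replicate 4, and hypothalamus ACTH replicates 2, 4 and 5, with adjusted p up to 0.113. For Kif20a they were brain gratified replicates 1, 4 and 5, brain ACTH replicates 3 and 4, hypothalamus gratified replicates 3 and 5, and hypothalamus ACTH replicates 2, 3 and 4, with adjusted p up to 0.0999. Of the genes that missed the threshold, Dusp6 came nearest at -0.75 ± 0.16 and Caln1 at 0.59 ± 0.12 (SE), each with an adjusted p of 0.0596. For Gas2, Ccne2, Met and Akip1 the difference between tissues did not pass, with adjusted p from 0.348 to 0.823. In this fit of all 44 arrays the brain effect itself did not pass for Gas2 (adjusted p = 0.291) or Ccne2 (adjusted p = 0.140), while the other 4 genes passed.

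Set against gratification after furosemide in the same tissue, 1 feature passed (0.0105%), Adamts1, and 322 had an unadjusted p under 0.05 (3.37%). Furosemide brains had Adamts1 at -1.40, -1.38, -1.43 and -1.40, and furosemide gratified brains at -0.70, -1.05, -1.31 and -1.06. All gratified arrays were higher there and the means differed by 0.37 ± 0.16 (SE, limma adjusted p = 0.998), and 3 of the 4 gratified arrays carry description numbers of another series. The difference between treatments was -1.56 ± 0.22 (SE, limma adjusted p = 0.00537). After furosemide no feature passed (0%), and 344 had an unadjusted p under 0.05 (3.6%). For the other 5 genes, furosemide and furosemide gratified brains differed by -0.05 for Gas2, -0.01 for Ccne2, -0.44 for Met, 0.06 for Ncaph and -0.01 for Akip1, and the difference between treatments did not pass, with adjusted p from 0.262 to 0.999.

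**Figure D5:**
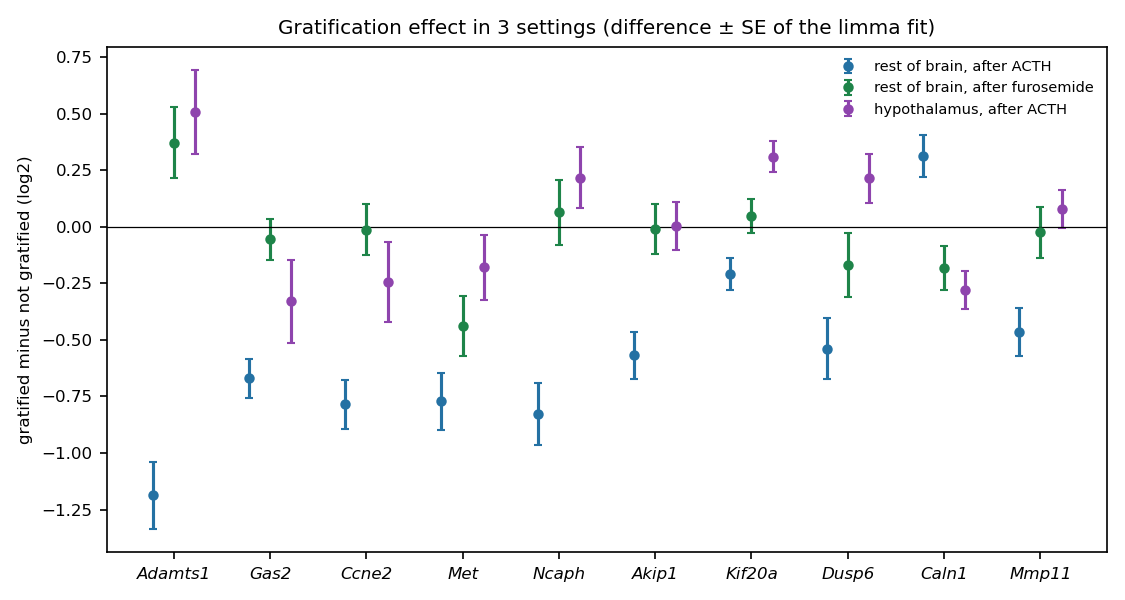
Points are log2 differences between gratified and ungratified animals and bars their standard errors from the limma fits, for the 6 called genes and 4 genes near or past the threshold for a difference between tissues. Adamts1 is at -1.19 in brain after ACTH, 0.37 in brain after furosemide and 0.51 in hypothalamus after ACTH.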

How the data were processed

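The deposited series table holds log2 ratios made by the authors, brain or hypothalamus RNA in Cy5 over reference RNA in Cy3. The submitters' processing notes name limma, with no version. The sources used here do not state the background correction, normalization, filters or base of the logarithm, and base 2 was assumed. All arrays ran the same way, with no dye swap. Scanner files, and with them signal over background, were not used here. Values of the 9554 features ran from -2.65 to 3.17 over the 44 arrays, none was missing, and 8651 names matched a current mouse symbol and 580 a single synonym in RefSeq. The number of arrays limits the precision.

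Treatment contrasts came from a group-means fit of the 21 brain arrays, and the contrast between tissues from all 44 arrays, with lmFit and eBayes of limma 3.58.1 in R 4.3.3. Tests were two-sided, with Benjamini-Hochberg adjustment over all features and a threshold of 0.05. The fit was tested on simulated data with independent normal noise and, for each feature, the same SD in all groups. Those data held no tied values and no group with a wider spread, so they do not cover these traits of the arrays. The extraction protocol speaks of each animal, but no label says which arrays share one, so the p-values reflect only how these samples vary, which may be technical.

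Named genes were the first 15 by p in each direction among features tied on at most 0.5 of the arrays of each group compared, 5 per direction in each difference between contrasts, list members past the threshold or else the first 2 by p, and 16 fixed genes. A gene with several features entered its list by the one that varied most over the 21 brain arrays. Those include the 9 compared, so list counts can lean towards small p, unlike the shares over all features. The genes and lists were chosen with earlier results of these data known. Alternatives were centring, quantile normalization, array weights, another eBayes, filters on tied values, gene means, other sets of arrays, the replicate number as a block, and each array left out.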

Additional observations from a re-analysis of the deposited data

Results flagged for a closer look

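In 4 cases 1 array stood far from the rest of its group among the 15 lower genes by rank and Met, by Dixon's criterion, which flags about 1 in 20 groups by chance; 32 groups of these 16 genes were examined. Adamts1 read -0.64 on gratified replicate 1, while the other gratified arrays read -1.40 to -1.56. Akip1 read 0.40 on ACTH replicate 2, against -0.26 to -0.21 on the others. Rpa3 read -0.85 on gratified replicate 3, against -1.28 to -1.21. Ogn read -1.39 on ACTH replicate 1, against -0.57 to -0.48.

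The effect of gratification after ACTH differed between brain and hypothalamus, by the limma test of that difference, for Adamts1 (-1.70 ± 0.28, adjusted p = 0.00310), Ncaph (-1.05 ± 0.20, adjusted p = 0.0213) and Kif20a (-0.52 ± 0.10, adjusted p = 0.0213, SE on the log2 scale). For Kif20a neither the brain effect nor the hypothalamic effect passed by itself. Between ACTH and furosemide in the brain it differed for Adamts1 (-1.56 ± 0.22, adjusted p = 0.00537).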

How the results depend on the processing

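No difference that passed changed sign under any alternative; of the other named genes Oxt, Drd2 and Sgk1, all near 0, did. In place of the 6 features lower in gratified brain, 22 passed with array weights, 10 with a trended robust eBayes, 1 with only the 9 arrays, and 1 when features tied on any of them were left out, a filter that keeps only Ncaph of the 6, so that the other 5 were not tested; without ACTH replicates 3 and 4 together there were 32, and with single arrays left out 5 to 41. Met passed in all 18 alternatives that held it, but both filters on tied values removed Met, so it was not tested there. Ncaph passed in 19 of 20, Adamts1 in 18 of 19, Gas2 and Ccne2 in 17 of 19 and Akip1 in 11 of 19. In place of 3 differences between tissues, 5 passed with array weights, with features tied on most arrays left out, and with gene means, 0 with only the arrays of the groups compared (532 at an unadjusted p under 0.05), 1 without hypothalamus gratified replicates 4 and 6, and 1 to 6 with single arrays left out. In place of 1 difference between treatments, 3 passed with array weights, 3 without ACTH replicates 3 and 4, and 1 to 5 with single arrays left out; leaving out tied features removes Adamts1 itself, so the count of 0 then (103 at an unadjusted p under 0.05) says nothing of that call. Leaving out features tied on any array, and leaving out pairs of arrays, were chosen after seeing the data. The cause of these shifts was not tested, except that fewer arrays or features entered some fits.

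Deviations from the group means correlated at 0.07, 0.11, 0.04 and -0.02 between same-numbered arrays, and at -0.19 to 0.22 between the others. With so few pairs these values cannot decide whether the numbers pair the samples. With the replicate block 5 features passed in the brain, 4 between tissues and 1 between treatments. Other background corrections and a slide block could not be run from this table, and what signal over background limits is not known here.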
